A study of Mus musculus with 2 samples.

Results

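The Egr transcription factors Egr1, Egr2, Egr3 and Egr4 and their corepressors Nab1 and Nab2 were followed in immortalized murine embryonic fibroblasts (MEF) before and after serum stimulation, with and without depletion of THOC5. The members were chosen by name: every non-control probe of the array carrying 1 of these 6 gene symbols was taken, which gave 7 probes of 39429 and 6 genes of 28312. Nab2 had 2 probes and every other gene had 1. THOC5 is a subunit of the THO complex, which takes part in mRNA processing and export. The question was how far the response of immediate early genes to serum depends on it.

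All cells were of the genotype Rosa26ERT2 Cre: THOC5 (flox/flox) on a C57BL/6 x B6:129 Ola background, so that control cells carried both the floxed alleles and the tamoxifen-inducible Cre, driven from the ubiquitously active Rosa26 locus. Control cells are labelled wildtype and received no tamoxifen. THOC5-depleted cells are labelled as a THOC5 knockdown with 2 days of tamoxifen; according to the methods of the study, cells were exposed to 10 uM tamoxifen for 24 h and kept in growth medium for 24 h. Starvation for 24 h and 20% serum are described there, and the labels give 1 h of stimulation with fetal calf serum (FCS). Total RNA was hybridized to 2 dual-colour Agilent arrays, 1 for each kind of cell, with unstimulated cells in the Cy3 channel and stimulated cells in the Cy5 channel. There was 1 array per condition and no dye swap. No p-value or replicate error can therefore be given for any value, dye and serum cannot be told apart within an array, and tamoxifen and loss of THOC5 cannot be told apart between arrays. All RNA came from 1 cell line.

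Egr proteins are zinc finger transcription factors that bind GC-rich sites, and their genes are immediate early genes, switched on by growth factors without new protein synthesis. In fibroblasts the signal runs from growth factor receptors through the Raf, Mek and Erk kinases to ternary complex factors, which act with serum response factor on CArG boxes in Egr promoters. Nab1 and Nab2 hold no DNA-binding domain of this kind: they bind Egr1, Egr2 and Egr3 and bring in the NuRD complex through Chd4, which represses Egr targets. Nab2 has itself been described as an Egr-induced gene, giving a negative feedback loop.

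The promoters of 4 members are shown, so that Egr2 and Egr4 can be set beside Nab1 and Nab2; that of Egr1 is not shown here. Each sequence is the 250 bases before a RefSeq transcript start (GRCm38.p6), read 5′ to 3′ on the strand of the gene. Capitals mark matches, on either strand, to a CArG box, to the cAMP response element half-site TGACG, and to the Egr sites GCGTGGGCG and GCGGGGGCG. The Egr2 sequence is 1 of 5 windows in the table, from chr10:67537619-67537868 on the plus strand, and belongs to the start in the middle of the 5. Egr4 lies at chr6:85513590-85513839, Nab1 at chr1:52500449-52500698 and Nab2 at chr10:127666704-127666953, each on the minus strand. Egr3 was not matched in the table.
Egr2: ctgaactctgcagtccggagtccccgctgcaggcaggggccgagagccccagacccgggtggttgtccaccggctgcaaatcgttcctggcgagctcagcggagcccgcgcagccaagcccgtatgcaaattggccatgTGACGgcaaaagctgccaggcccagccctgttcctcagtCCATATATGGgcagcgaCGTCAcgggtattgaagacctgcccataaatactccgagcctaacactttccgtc
Egr4: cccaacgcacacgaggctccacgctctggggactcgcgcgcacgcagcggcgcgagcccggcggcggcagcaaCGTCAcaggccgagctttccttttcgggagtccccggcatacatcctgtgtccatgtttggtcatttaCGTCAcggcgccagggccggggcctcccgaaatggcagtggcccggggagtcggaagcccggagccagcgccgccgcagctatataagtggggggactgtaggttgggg
Nab1: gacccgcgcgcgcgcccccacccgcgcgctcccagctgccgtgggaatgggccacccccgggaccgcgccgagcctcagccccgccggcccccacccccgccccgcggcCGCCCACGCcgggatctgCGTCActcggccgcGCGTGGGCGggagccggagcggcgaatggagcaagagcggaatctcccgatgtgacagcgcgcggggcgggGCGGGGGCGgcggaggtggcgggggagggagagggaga
Nab2: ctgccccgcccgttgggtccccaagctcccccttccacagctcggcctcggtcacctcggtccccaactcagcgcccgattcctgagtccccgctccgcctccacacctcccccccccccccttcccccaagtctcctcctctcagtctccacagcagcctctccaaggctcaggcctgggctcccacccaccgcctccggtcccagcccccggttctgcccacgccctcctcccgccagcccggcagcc

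The Egr2 window held a CArG box that began 72 bases before the start, and 4 of the 5 Egr2 windows held one. Of these, 3 overlap and share the printed box, so the 4 windows hold 2 different boxes. Among all 32851 windows of this length in the table, 1.47% held a CArG box. The half-site TGACG occurred at 111 and 55 bases before the Egr2 start and at 177 and 109 bases before the Egr4 start. It was also found once in the Nab1 window, and 17.8% of all windows held it. None of the printed windows held the full element TGACGTCA, which was present in 1.55% of all windows. The Nab1 window held 2 matches to GCGTGGGCG, at 141 and 109 bases before the start, and 1 match to GCGGGGGCG, at 38 bases. These sites were present in 0.536% and 2.57% of all windows. The Nab2 window held no match to any of these sequences, and near matches were not sought. A match describes the sequence only, and no binding was measured.

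The Egr1 probe hybridizes to a stretch at chr18:35024395-35024454 on the plus strand of mm9, the build of the array's annotation. Its processed signal, which is background-subtracted, dye-normalized intensity, was 4742 in unstimulated control cells and 72874 after 1 h of serum. In THOC5-depleted cells the signals were 3977 and 62359. Both stimulated samples were thus high and both unstimulated samples low, with no overlap between them. The serum ratio of Egr1, which encodes the prototype of the family, was 15.4 in control cells and 15.7 after THOC5 depletion.

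Egr2, known for its role in hindbrain patterning and myelination, was measured at chr10:67004798-67004857 on the plus strand. Its signal was 574 in unstimulated and 25851 in stimulated control cells, and 652 and 16040 in THOC5-depleted cells. The 2 stimulated samples again lay far above the unstimulated ones. The serum ratio was 45.0 in control cells and 24.6 after THOC5 depletion. Among the 17240 genes well above background in all 4 channels, Egr2 had the 2nd largest serum ratio on both arrays, and Egr1 was 13th in control and 7th in THOC5-depleted cells.

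Egr3, which acts in muscle spindle and lymphocyte development, was a dim probe at chr14:70479222-70479281 on the plus strand. Its signals were 7.36 and 58.0 in unstimulated and stimulated control cells, and 5.51 and 21.9 in THOC5-depleted cells. Both unstimulated signals were not well above background, so only bounds can be given, set against the lowest signal that was well above background in the same channel, 11.2 for control and 10.9 for THOC5-depleted cells. Egr3 rose at least 5.17-fold in control cells and, with THOC5 depleted, at least 2.02-fold.

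Egr4, the most divergent member of the family, was measured at chr6:85461153-85461212 on the minus strand. Its signal was well above background in 1 of the 4 samples, stimulated control cells, at 49.7. The other signals were 2.32 in unstimulated control cells and 2.36 and 3.22 in unstimulated and stimulated THOC5-depleted cells. Egr4 therefore rose at least 4.43-fold in control cells, and no ratio can be given for THOC5-depleted cells. The array does not show whether Egr4 RNA was absent there, since a signal under the background limit gives only a bound.

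The corepressors gave smaller changes. Nab1, measured at chr1:52515132-52515191 on the minus strand, had signals of 972 and 1076 in control and 742 and 742 in THOC5-depleted cells. The serum ratio of Nab1 was 1.11 with THOC5 present and 1.00 after depletion, and the 4 signals were close to each other. The brighter Nab2 probe, at chr10:127098009-127098068 on the minus strand, had signals of 10517 and 20536 in control and 8241 and 9724 in THOC5-depleted cells. Stimulated control cells stood above the other 3 samples. Its serum ratio of 1.95 in control cells was just under the 2-fold limit used for counts, and that in THOC5-depleted cells was 1.18.

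**Figure D1:**
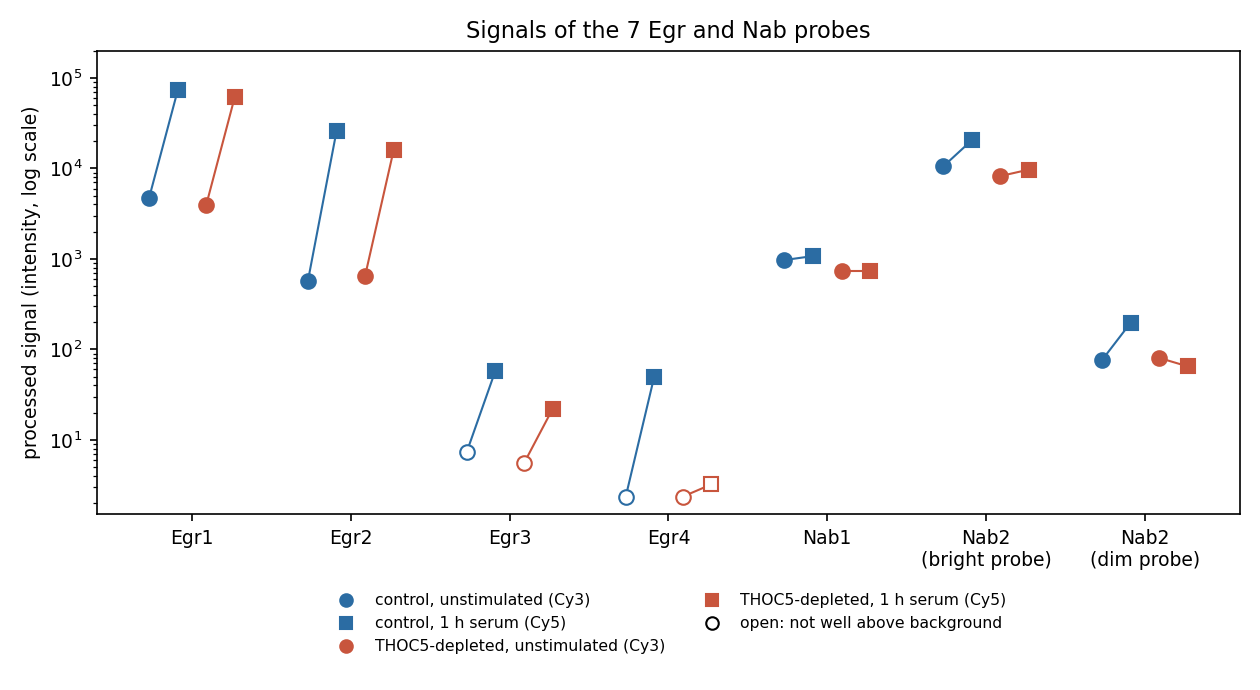
Processed signals (intensity, log scale) of the 7 probes in each of the 4 samples, 1 spot each, with unstimulated cells as circles and cells after 1 h of serum as squares. Egr1 and Egr2 rise steeply in both kinds of cell, Egr4 is well above background only at 49.7 in stimulated control cells, and open symbols mark signals not well above background.

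The second Nab2 probe, at chr10:127101413-127101472 on the minus strand, starts 3404 bases from the first and gave weak signals. Its signals were 76.3 and 197 in control cells and 80.5 and 64.9 in THOC5-depleted cells. Serum thus gave a ratio of 2.58 in control cells and of 0.806, a 1.24-fold lower signal, after depletion. Both probes showed a larger serum ratio in control than in THOC5-depleted cells, and they disagreed on the size and, in THOC5-depleted cells, on the direction. The array's annotation lists both Nab2 transcript variants for each probe. The first 30 bases of the 60-base probes are given to show that they read different stretches of Nab2.
Nab2 bright probe: cctgtcgaacacttagcgtgtctttctttt
Nab2 dim probe: agctgaataagaagctggcgcggagcgtgg

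Counted over the family, 4 of 6 members rose at least 2-fold with serum in control cells, Egr1, Egr2, Egr3 and Egr4, where 2.65% of 18814 testable genes did so. In THOC5-depleted cells 3 of 5 testable members passed the same limit, Egr1, Egr2 and Egr3, against 0.953% of 18574 genes. Both Nab genes stayed under it on both arrays by the brighter probe. The calls for Egr3 and Egr4 rest on dim spots: with signals floored at 50 the log2 serum ratio of Egr3 in control cells was 0.21 and that of Egr4 was 0.00. In THOC5-depleted cells the Egr3 bound lies just past 2-fold, and the count there became 2 with that floor, with normexp background correction and with centring on spike-in probes.

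To compare the serum response between both kinds of cell, the serum ratio of control cells was divided by that of THOC5-depleted cells, which gives the fold reduction. A factor common to both channels of an array cancels in it, and one that differs between the channels does not. Egr1 had a fold reduction of 0.98, so that its response in THOC5-depleted cells was as large as in control cells. Egr2 had 1.83, Nab2 1.65 and Nab1 1.11. The dim Nab2 probe gave 3.20, which differs from the brighter probe by 0.95 on the log2 scale. No fold reduction can be given for Egr3 and Egr4, whose unstimulated signals were not well above background.

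Genes printed as 10 spots give a measure of spot noise within an array. Probes of like signal to Egr1 had a spot SD of the log2 ratio of 0.02 on the control array and 0.018 on the other, and those like Egr2 0.017 and 0.021. For the bright Nab2 probe the figures were 0.02 and 0.018, for Nab1 0.024 and 0.029, and for the dim Nab2 probe 0.075 and 0.077. The log2 fold reductions of -0.03 for Egr1, 0.87 for Egr2, 0.15 for Nab1, 0.73 for Nab2 and 1.68 for the dim Nab2 probe can be read beside these. Spot noise covers the print and scan of 1 array only, and not culture, labelling or dye.

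Among the 414 genes with a control serum ratio of 2 or more, 86.7% had a fold reduction of at least 1.3 and the median was 1.88. Egr2 at 1.83 was near that median, at place 219 of 414 from the largest. Egr1 was at place 404 of 414, and 15 of these genes had a fold reduction under 1. These genes were selected by their control ratio, which also enters the fold reduction. When genes were selected by a 2-fold rise after THOC5 depletion instead, 58.0% of 131 genes reached 1.3 and the median was 1.56. Among all 17240 genes the share was 8.36% and the median 0.995, and Egr2 and Nab2 were the 2 of 4 members that reached 1.3. Among the 20 genes with the largest control ratios, all of 12.1 or more, 14 had a fold reduction above 2 and 3 were under 1.3: Fos, Fosb and Egr1.

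**Figure D2:**
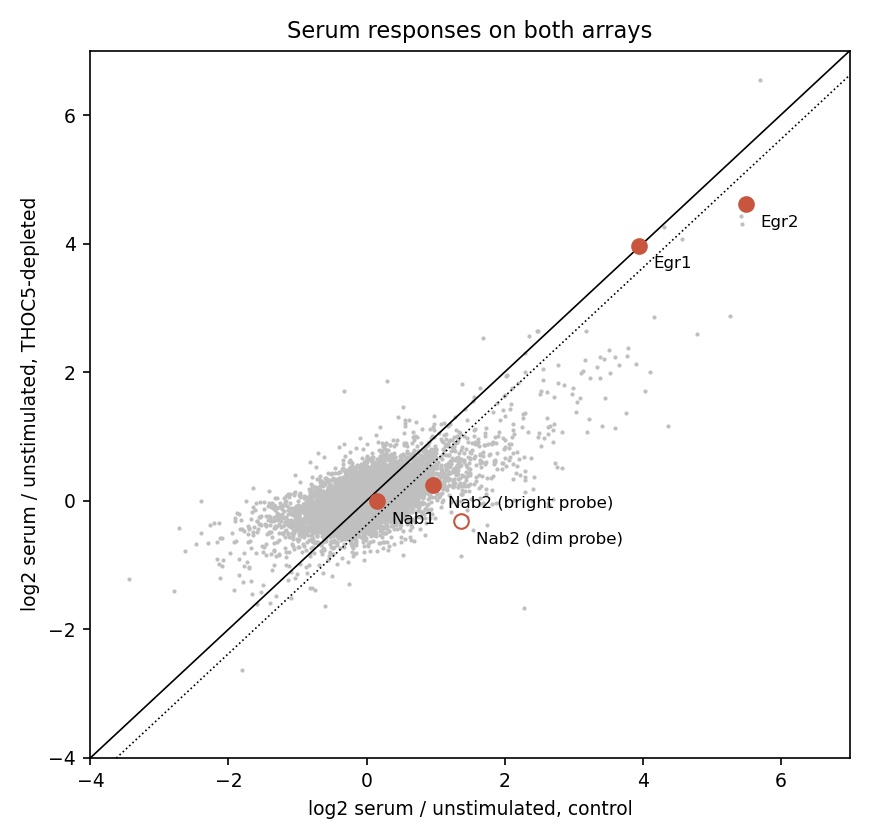
Log2 serum over unstimulated ratio in control cells (x axis) and THOC5-depleted cells (y axis) for genes well above background in all 4 channels, with Egr1, Egr2, Nab1 and Nab2 in red. Egr1 lies on the solid line of equal response, and Egr2 and both Nab2 probes lie below the dotted line of a fold reduction of 1.3.

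The fold reduction of each gene depends on how far the 2 arrays can be compared as they stand. When the log2 ratios of THOC5-depleted cells were multiplied by 1.43, which gives both arrays the same spread over all genes, the log2 fold reduction of Egr2 turned to -1.10 and that of Egr1 became -1.72, while that of Nab2 was 0.62. The 10 spike-in probes, present at known amounts in 32 spots each, had a slope of 1.02 between both arrays over log2 ratios from -3.31 to 2.21. The spike-in log2 ratios were higher by a mean of 0.24 in THOC5-depleted cells. Centring on them gave log2 fold reductions of 0.22 for Egr1, 1.12 for Egr2, 0.39 for Nab1 and 0.97 for Nab2. In all of these settings Egr2 exceeded Egr1.

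Levels were next compared between the arrays within 1 channel, after scaling the arrays to the same average intensity. In unstimulated cells none of the 4 testable members was lower by 2-fold in THOC5-depleted cells, where 2.08% of 19090 genes were, and none was higher by 2-fold, where 2.22% were. The THOC5-depleted over control ratio was 1.03 for Egr1, 1.44 for Egr2, 0.926 for Nab1 and 0.974 for Nab2. The sign for Egr1 changed with no scaling between arrays, over log2 -0.25 to 0.08. That for Nab2 changed when its probes were averaged, over log2 -0.35 to 0.10, and Egr2 stayed higher in every setting, at 0.18 to 0.52.

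In stimulated cells 2 of 6 members were lower by at least 2-fold in THOC5-depleted cells, Egr3 and Egr4, where 2.25% of 18706 genes were, and none was higher, where 2.45% were. Egr3 was 2.38-fold lower and Egr4 at least 3.72-fold lower. Both spots were dim. Probes of like mean signal over the 4 channels had a spot SD of the log2 serum ratio of 0.3 on both arrays for Egr3. For Egr4 it was 0.58 and 0.49. That SD holds within an array and does not measure the spread of a difference between arrays. With normexp background correction the log2 difference of Egr3 was -0.63 and that of Egr4 had its bound at -1.05, so that Egr3 no longer reached 2-fold. With a floor of 50 neither did.

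Of the brighter members, stimulated Nab2 was 1.70-fold lower in THOC5-depleted cells, at log2 -0.76, and its dim probe 2.70-fold lower. Stimulated Egr2 was 1.27-fold lower and Nab1 1.19-fold lower. These 3 genes were lower in every setting tried, Nab2 at log2 -1.10 to -0.74, Egr2 at -0.69 to -0.33 and Nab1 at -0.54 to -0.21. Egr1 had a ratio of 1.05, and its sign changed with the setting, at log2 -0.22 to 0.08. For Egr2 the smaller serum ratio in THOC5-depleted cells thus came from a higher unstimulated and a lower stimulated level, and for Nab2 from the stimulated level.

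**Figure D3:**
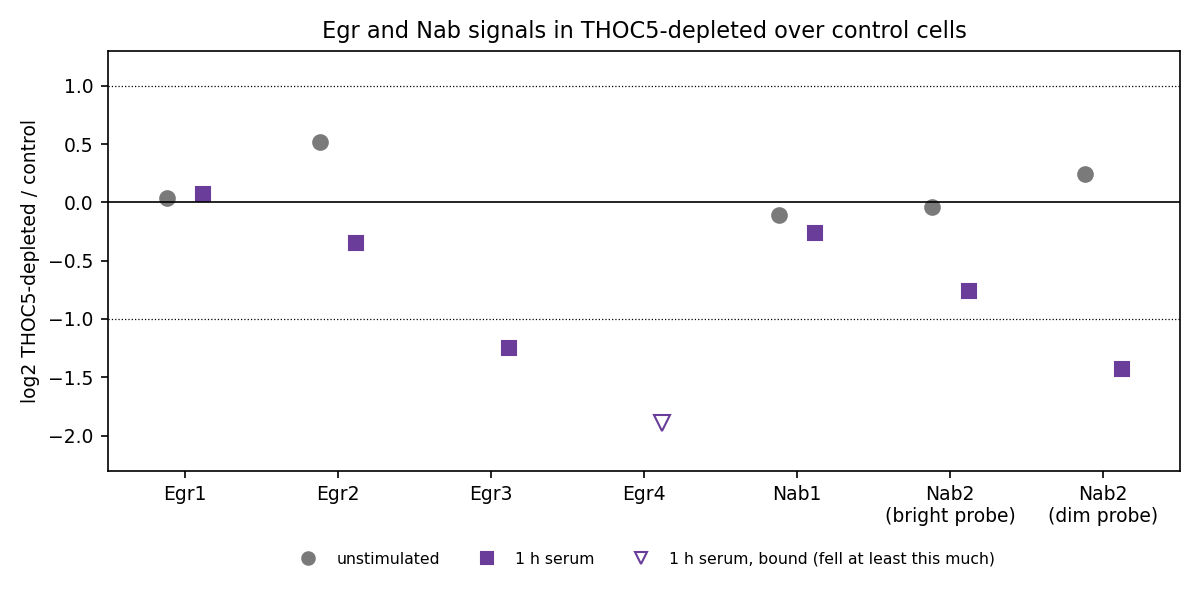
Log2 ratio of THOC5-depleted over control signal for each probe in unstimulated cells (circles) and after 1 h of serum (squares), with dotted lines at 2-fold. The triangle is the bound for Egr4, at -1.89, and Egr3 and Egr4 have no unstimulated value because their signals were not well above background.

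The genes most like each member were found by their distance over 3 log2 values, namely both serum ratios and the unstimulated difference between arrays. The nearest gene to Egr1 was Fosb, an AP-1 subunit, at a distance of 0.48, with serum ratios of 19.8 in control cells and 19.1 after depletion. The nearest to Egr2 was the orphan nuclear receptor gene Nr4a1 at 0.22, with 43.0 and 21.5. Egr1 was the third nearest to Egr2, at 1.75. Nab2 was nearest to Palld, which encodes an actin-associated protein, at 0.10, with ratios of 1.92 and 1.19, and Zfp655 lay at 0.11. Nab1 lay among genes with little change, Tmem131 and Zfp281 at 0.02 and Gm9855 at 0.03. These distances come from 1 value per sample.

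Genes upstream of the Egr promoters changed little with serum. All 19 listed kinases and factors (Raf, Mek, Erk, Rsk and Msk kinases, ternary complex factors, Srf, its cofactors and Creb1) were well above background in all samples. Their median log2 serum ratio was 0.02 in control cells and -0.12 after depletion, where the medians of all genes were -0.02 and -0.01. Srf, itself a serum-responsive gene, was the 1 of 19 that passed 2-fold in control cells, where 2.65% of all genes did, with signals of 4191 and 10416 against 2312 and 4363 in THOC5-depleted cells. Its serum ratios were 2.49 and 1.89 and its fold reduction 1.32. A fold reduction of 1.3 or more was found in 3 of the 19 genes, where 8.36% of all genes reached it. Between the arrays, Creb1, which encodes the factor that binds cAMP response elements, was 2.40-fold higher in unstimulated THOC5-depleted cells, 1 of 19 genes where 2.22% of all genes were, and 1.64-fold higher in stimulated ones.

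The 13 NuRD subunits, through which Nab proteins repress, showed no 2-fold change by serum or between the arrays. Between the arrays, 2.08% of all genes were lower and 2.22% higher in unstimulated cells, and 2.25% and 2.45% in stimulated ones. A count of 0 among 13 lies near these shares. The median log2 serum ratios of the subunits were 0.03 and -0.04, and 1 of 13 had a fold reduction of 1.3 or more, which is near the share of all genes. Chd4, the ATPase reported to bind Nab2, had serum ratios of 1.13 and 1.02. None of the 5 Sp and Wt1 genes, whose proteins bind overlapping GC-rich sites, passed 2-fold with serum. With 2.65% and 0.953% of all genes past 2-fold on the control and the THOC5-depleted array, counts of 0 among 13 and 5 genes lie near the share of all genes. Wt1 was 2.55-fold higher in unstimulated THOC5-depleted cells, after scaling between the arrays, with dim unscaled signals of 13.4 and 30.6, and at least 3.58-fold higher in stimulated ones.

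Genes described elsewhere as Egr targets were then examined, 24 on the array. In control cells 9 of 21 testable genes rose at least 2-fold with serum (2.65% of all genes) and in THOC5-depleted cells 4 of 22 (0.953%), with median log2 serum ratios of 0.66 and 0.09. A fold reduction of at least 1.3 was found in 12 of the 21 genes well above background in all samples, where 8.36% of all genes reached it. Of the 9 targets at 2-fold or more in control cells, 8 reached 1.3, against 86.7% of all such genes, and Gdf15, a stress cytokine gene, was lowest at 1.15. Pdgfa and Pdgfb, which encode platelet-derived growth factor chains, had the largest of these, 3.42 and 3.34. Pdgfa had signals of 6484 and 28090 in control and 5772 and 7321 in THOC5-depleted cells, so that stimulated control cells stood apart.

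F3, the gene of tissue factor, had serum ratios of 10.1 and 4.23 with a fold reduction of 2.38, and the angiogenic factor gene Vegfa had 4.18 and 1.84, with 2.27. Arc, which encodes a synaptic regulator, and the stress factor gene Atf3 both had a fold reduction of 1.41. The serum ratios of Arc were 23.7 and 16.8, and those of Atf3 5.86 and 4.16. Several are immediate early genes themselves, and whether Egr proteins act on them in these cells was not measured.

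**Figure D4:**
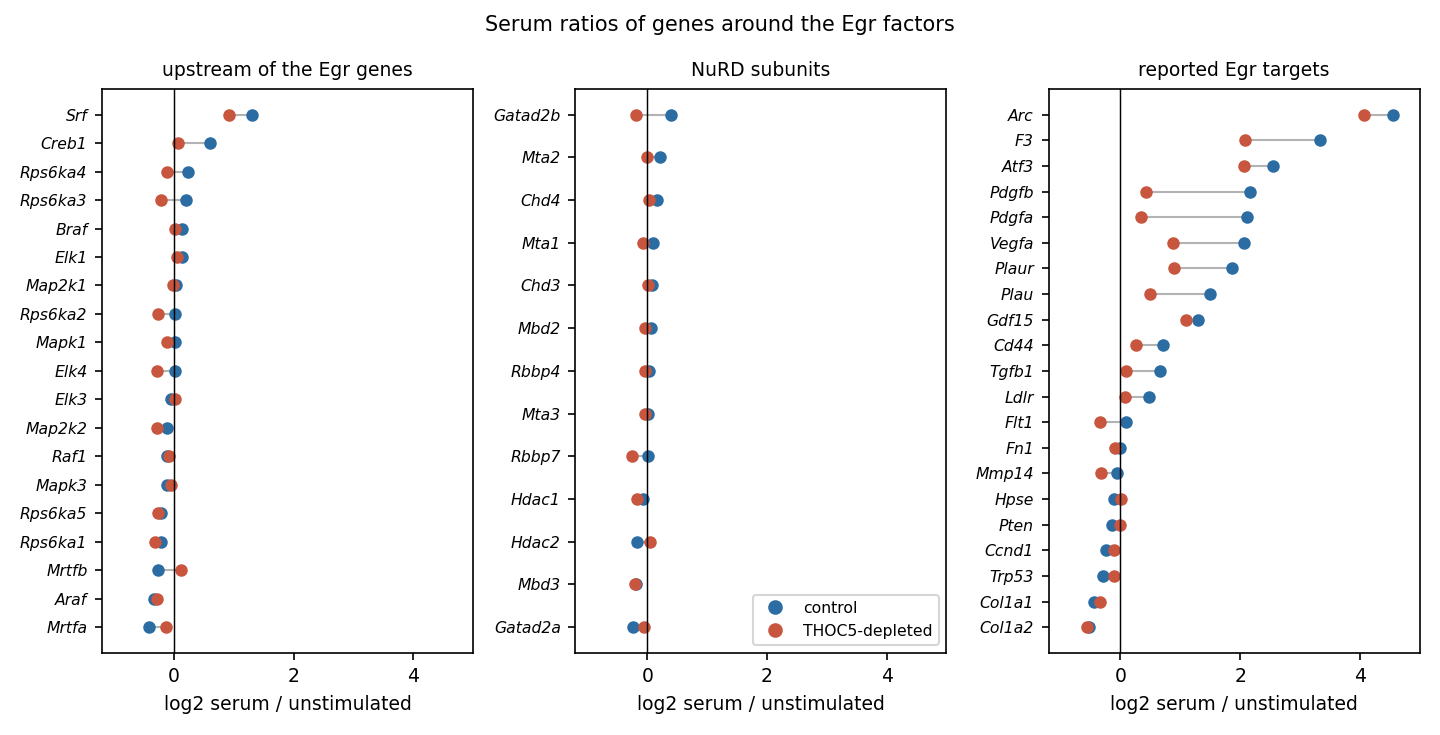
Log2 serum over unstimulated ratio of single genes in control (blue) and THOC5-depleted cells (red), for genes upstream of the Egr promoters, NuRD subunits and described Egr targets well above background in all samples. Upstream and NuRD genes other than Srf lie within 2-fold of the zero line, and Pdgfa and Pdgfb show the widest gaps among the targets.

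Across the series, Thoc5 itself was checked first. Its signals were 4808 and 3047 in unstimulated and stimulated control cells, and 546 and 455 in THOC5-depleted cells, which after scaling between the arrays was 7.10-fold and 5.39-fold lower. Between 62.1% and 64.4% of spots were well above background in each of the 4 channels, and none was saturated. All 10 fibroblast markers were well above background in every sample. Of these, Col3a1 and Pdgfra were lower by 2-fold or more in unstimulated THOC5-depleted cells, at ratios of 0.458 and 0.414, where 2.08% of all genes were, and in stimulated cells their ratios were 0.598 and 0.766. Their summed signal, unscaled as are the other sums here, was 445231 to 486610 in control and 358321 to 400719 in THOC5-depleted cells, where the 75th percentile of all spots was 1051.8 to 1062.5 and 861.8 to 867.0. Of the markers of other cell types, 3 of 5 epithelial, 3 of 4 endothelial, 2 of 4 blood, 3 of 4 Schwann cell and 1 of 3 muscle markers were well above background in all 4 channels, among them Krt8, Kdr, Itgam and Myod1. In none of the channels were Cdh1, Tek and Myog well above background. The summed signal of the blood markers was 6569 to 8471 in control and 7716 to 8940 in THOC5-depleted cells, most of it from Itgam. Cd68, 1 of 4 blood markers past 2-fold, was at least 2.35-fold higher in unstimulated and at least 2.06-fold higher in stimulated THOC5-depleted cells (2.22% and 2.45% of all genes). Its spot was dim, with unscaled signals of 11.6 and 11.8 in control and 24.6 and 26.0 in THOC5-depleted cells. Epcam, 1 of 4 testable epithelial markers, was at least 2.66-fold and at least 2.45-fold lower (2.08% and 2.25%). Its signals were also dim, at 32.1 and 32.6 against 5.32 and 6.44. Cdh5, 1 of 3 testable endothelial markers, was 2.17-fold lower in stimulated cells. The other testable markers of these lists stayed within 2-fold. Epithelial markers summed to 198 to 226 and 126 to 156, endothelial markers to 1013 to 1136 and 887 to 890, Schwann cell markers to 1210 to 1873 and 1026 to 1426, and muscle markers to 42 to 52 and 42 to 45. Their part in the values of the Egr and Nab genes was not tested.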

How the data were processed

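Total RNA was labelled with Cy3 or Cy5 and hybridized to 2 Agilent dual-colour mouse arrays of the same slide, which per the file headers were annotated on mm9. The authors deposited the output of Agilent Feature Extraction 10.7.3.1: processed signals, an intensity for each channel after background subtraction and linear and LOWESS dye normalization, and a log10 ratio. The series also holds a deposited table of unsigned log10 ratios, which served as an alternative once signs were taken from the scanner output.

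Serum ratios were formed within each array from processed signals. Levels between arrays were compared after Aquantile scaling (limma 3.58.1, R 4.3.3); other steps used Python 3.11.15, numpy 2.4.6 and pandas 2.3.3. Control spots and outlier spots (239 and 234 of 43020 per array) were left out, and the brightest probe stood for a gene. Symbols were updated through RefSeq accessions for 26406 of 35777 named probes, and 3092 changed. A signal not well above background was replaced by the lowest signal well above it in that channel, if higher, giving a bound. Calls used 2-fold, and a fold reduction of 1.3. The number of arrays, 1 per condition, limits the precision.

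Named genes were the members, genes among their 3 nearest, and up to 6 genes per list. The genes of the lists were those with the largest serum ratios, up or down, on either array among genes past 2-fold there. A few more were chosen after their values were seen (Chd4, Creb1, Wt1, Gdf15 and the markers). Members and lists were chosen with earlier results of these data known. Alternatives covered background correction, dye normalization, scaling, probe choice, floors and thresholds. A near gene of Nab2 and a marker gene are not reported here. Exon or UTR positions of probes were not analysed here.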

Additional observations from a re-analysis of the deposited data

How the results depend on the processing

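Of 55 counts of members recomputed under alternative settings, 44 stayed within 1.5 times the count reported. A floor of 50 and the mean or median over probes left the values of Egr1, Egr2 and Nab1 as they were. Part of this agreement was thus fixed in advance. A rise of a count from 4 to 5 also lay within this limit. Of 184 single values of Egr1, Egr2, Nab1 and Nab2, 1 was scored as reversed, the log2 fold reduction of Egr2. It was -1.10 when log ratios were scaled to one spread. Smaller values also changed sign without being scored so. Among them, the log2 fold reduction of Egr1 went from -0.03 to 0.22 with centring on the spike-in probes. The log2 serum ratio of Nab2 in THOC5-depleted cells went from 0.24 to -0.04 with the mean over its probes. Egr3 and Egr4 had no values in this tally. Of the 2 members at 2-fold in control cells and well above background in all 4 channels, 1 had a fold reduction of 1.3 or more. Among all 414 such genes 86.7% did. The member count was 2 with no dye normalization and with the mean or the median over the probes of a gene, where Nab2 also passed 2-fold in control cells. It was 0 with log ratios scaled to one spread or with a limit of 2. The 4 members that passed 2-fold with serum in control cells became 2 with a floor of 50 and when only probes well above background in all 4 channels were used. The 2 members lower by 2-fold in stimulated THOC5-depleted cells became 1 with normexp correction and loess or with a limit of 3-fold, and 0 with a floor of 50 or with only probes well above background in all 4 channels. In these last settings the fall to fewer members follows from the dim Egr3 and Egr4 spots being floored or left out. Centring on the spike-in probes was chosen after seeing the data. No paired analysis was possible because each condition has 1 array. Leaving out a replicate was not possible for the same reason.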
